A study of Mus musculus with 15 samples.

Results

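Chromatin accessibility was compared in islets of control mice 6 days after partial pancreatectomy (PPx, an operation that takes out a portion of the gland) and before it. Every peak listed by the authors for this comparison was taken, 1 entry per position, which gave 8070 peaks of 601 bp annotated to 6742 genes. The study's 4 comparisons listed 41774 peaks in all, with many regions listed more than once. The assay was ATAC-seq on nuclei from 40000 islet cells per library, where the transposase Tn5 inserts sequencing adapters wherever DNA is open. The control mice were Arid1aFl/Fl; MIP-rtTA males aged 3 months, and 4 libraries were made after PPx and 4 before. The Arid1a βKO mice also carried TRE-Cre, with 4 libraries after PPx and 3 before, and serve below only as a comparison. The insulin promoter of MIP-rtTA makes a transcriptional activator that needs doxycycline, and TRE-Cre responds to that activator. All groups, controls included, carried the floxed Arid1a alleles and the activator and drank doxycycline at 1 g/L for 2 weeks, and PPx followed 1 week after it ended. No sham-operated group was analysed here, so the effects of surgery and of tissue loss cannot be told apart.

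Islets are small endocrine organs in which insulin-producing β cells lie beside glucagon-producing α cells and somatostatin-producing δ cells. In young rodents, loss of pancreatic tissue raises the demand on the remaining β cells, and their proliferation and metabolic adaptation have been studied for decades with this operation. Open promoters and distal elements mark where regulatory proteins can bind, so a comparison over time asks which of them become more or less accessible during that response.

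The promoters of 5 genes on which the results below turn are shown here, each as the 250 bases before the start site, 5′ to 3′ on the gene's strand, from RefSeq on GRCm38.p6. Hnrnph3 and Rfesd read higher after PPx, Pttg1 and Iffo2 read lower, and Ins1 is an insulin gene. Capitals mark 4 motifs on either strand, which are the GC box core GGGCGG, the letters CCAAT, the ETS-like string CCGGAAG and the cAMP element TGACGTCA. The positions are chr10:63023850-63024099 on the minus strand for Hnrnph3, chr13:76018607-76018856 on the minus strand for Rfesd, chr11:43425982-43426231 on the minus strand for Pttg1, chr4:139574470-139574719 on the plus strand for Iffo2 and chr19:52264047-52264296 on the plus strand for Ins1.
Hnrnph3: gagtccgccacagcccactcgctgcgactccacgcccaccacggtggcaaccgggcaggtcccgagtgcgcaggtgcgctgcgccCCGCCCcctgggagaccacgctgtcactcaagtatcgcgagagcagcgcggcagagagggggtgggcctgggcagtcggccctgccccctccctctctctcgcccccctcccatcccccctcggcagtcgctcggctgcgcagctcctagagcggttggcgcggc
Rfesd: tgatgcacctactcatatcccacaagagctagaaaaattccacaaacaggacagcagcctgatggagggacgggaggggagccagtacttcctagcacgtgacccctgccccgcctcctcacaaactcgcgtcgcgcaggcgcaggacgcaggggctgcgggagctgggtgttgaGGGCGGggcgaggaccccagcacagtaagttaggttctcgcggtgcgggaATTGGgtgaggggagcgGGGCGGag
Pttg1: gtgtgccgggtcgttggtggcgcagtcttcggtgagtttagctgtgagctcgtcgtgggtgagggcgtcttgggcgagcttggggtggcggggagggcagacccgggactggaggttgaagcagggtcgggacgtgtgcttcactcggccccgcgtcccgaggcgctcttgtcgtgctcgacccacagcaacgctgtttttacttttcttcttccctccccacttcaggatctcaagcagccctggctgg
Iffo2: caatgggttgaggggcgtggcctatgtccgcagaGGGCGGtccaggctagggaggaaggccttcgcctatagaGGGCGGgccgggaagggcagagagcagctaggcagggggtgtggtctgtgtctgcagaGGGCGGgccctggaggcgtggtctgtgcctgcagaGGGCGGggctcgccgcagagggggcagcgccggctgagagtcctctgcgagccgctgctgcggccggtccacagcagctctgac
Ins1: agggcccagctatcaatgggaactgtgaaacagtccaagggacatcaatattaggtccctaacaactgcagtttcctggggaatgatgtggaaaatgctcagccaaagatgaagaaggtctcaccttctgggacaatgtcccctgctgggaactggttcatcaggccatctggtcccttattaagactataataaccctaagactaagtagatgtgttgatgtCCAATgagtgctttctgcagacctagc
The Iffo2 window held 4 copies of GGGCGG and the Rfesd window held 2 copies with 1 CCAAT. The Hnrnph3 window held 1 copy of GGGCGG, the Ins1 window 1 CCAAT, and the Pttg1 window none of the 4 motifs. Its GC content was 63.6%, against 73.6% for Hnrnph3, 63.2% for Rfesd, 70.4% for Iffo2 and 46.4% for Ins1. These letters are a description of the windows and name no factor that binds there.

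Accessibility after PPx differed little from that before PPx at most peaks, and no single peak passed the authors' threshold. The median peak had a log2 concentration (the log2 of the mean normalized reads in a group) of 4.01 after PPx, against 3.86 before. The median change over peaks was 0.16 on the log2 scale, or 1.12-fold, with quartiles of -0.02 and 0.36. After PPx, 5872 peaks had a higher value than before and 2099 a lower one, while 99 were equal. Changes stayed within 0.5 of 0 at 84.8% of peaks, exceeded 1 at 67 peaks and lay below -1 at 16. In bulk islets, a changed share of a cell type and changed accessibility within its cells cannot be told apart.

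The direction of this general difference depends on the scaling. The same 8 libraries also appear in the authors' comparisons of genotypes after PPx and before PPx. When the control levels were taken from those 2 comparisons at 6869 matched peaks, the median change was -0.07 in place of 0.15 at the same peaks, and 38.1% of peaks were higher in place of 72.1%. The step between the scalings had a median of -0.23 with quartiles of -0.25 and -0.20, so it was alike at most peaks, with exceptions such as a Kat2b promoter peak given below. Across peaks the changes on the 2 scalings had r = 0.93, both from the same libraries. The changes below are therefore also given relative to the median of 0.16 where it matters.

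By the authors' DiffBind test, 0 of the 8070 peaks had an FDR under 0.05 (0% of those tested). The smallest FDR in the authors' deposited table was 0.619, at a peak annotated to the predicted gene Gm21860 on chromosome Y, which read 4.89 after and 3.59 before PPx with p = 7.42e-05. The other 8069 peaks had an FDR of 0.999 or more in the authors' deposited table. At an unadjusted p under 0.05, that table listed 196 higher peaks (2.43% of those tested) and 8 lower ones (0.0991%), and at a p under 0.01 it listed 19 and 3. Relative to the median of the table, an approximate normal test from the authors' p-values gave 48 higher and 45 lower at an unadjusted p under 0.05. None of these counts shows which single peaks differ. The peaks named below are a description, picked mainly by the size of the change, the p-value or the strength of the peak. Errors per group were not analysed here, since the deposited values are means of 4 libraries each. The authors' p-values imply a standard error near 0.38 on the log2 scale at the median peak, and the depth of each library is unknown. The labels name 4 control mice after PPx and 4 before but tie no library to a mouse, so p-values measure the spread between these libraries.

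**Figure D1:**
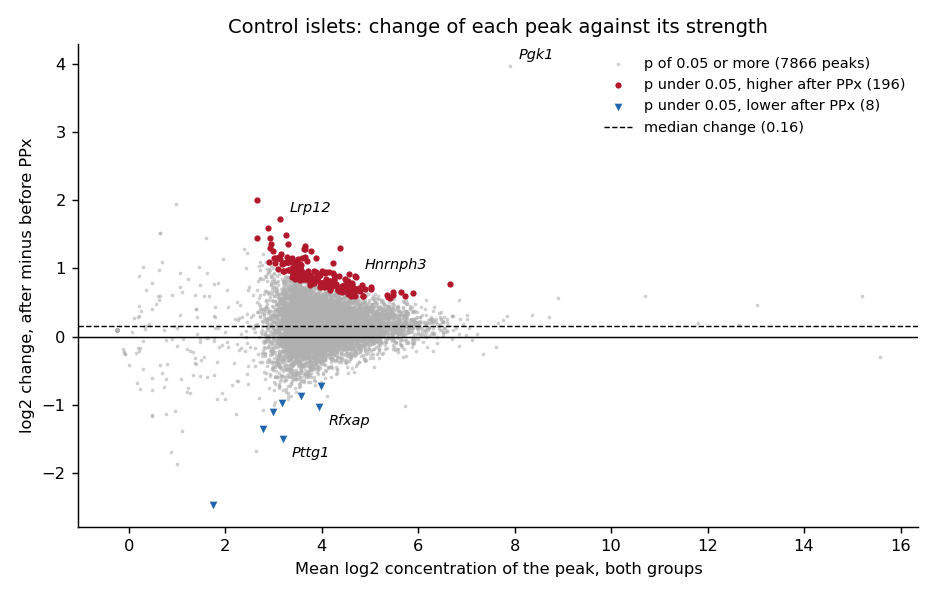
Each point is 1 of the 8070 peaks of control islets, with its mean log2 concentration on the horizontal axis and its log2 change (after minus before PPx) on the vertical axis. The 196 higher peaks with an unadjusted p under 0.05 (red) and the 8 lower ones (blue triangles) lie mainly at mean levels near 3 to 5, and the solid and dashed lines mark 0 and the median of 0.16.

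Stronger peaks were more uniform, while the median change had no steady trend with strength. In 10 equal bins of mean concentration, from weak to strong, the median change was 0.09, 0.18, 0.19, 0.14, 0.13, 0.16, 0.19, 0.16, 0.17 and 0.19. The weakest bin holds 107 peaks that lie at the lowest level of both groups, -0.21 after and -0.30 before PPx, whose change of 0.09 is set by those levels and is no measured change. Without them its median was 0.15, and the share of peaks higher after PPx was 62.0% there, against 85.4% in the strongest bin. The spread of the change over peaks (SD over peaks, not over mice) was 0.50 in the weakest bin and 0.23 in the strongest. Higher peaks with p under 0.05 were 2.35% of the weakest bin, 3.10% and 3.35% of the next ones and 1.12% of the strongest.

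How often a peak was called differed little between the times. In the authors' deposited table, 5775 peaks were called in at least 2 of 4 libraries after PPx and 5634 before, and 1839 were called in all libraries of both groups. A further 403 peaks were called in at least 2 libraries after PPx and none before, and 323 peaks the other way round. Over all peaks, 4016 were called in equally many libraries, 1364 in 1 more after PPx and 1263 in 1 fewer. A difference of 2 libraries was seen at 648 peaks with more calls after PPx and at 602 with fewer. Of the 196 higher peaks, 141 were called in more libraries after PPx, 53 in equally many and 2 in fewer. Those 196 were picked by their levels in the same libraries, so their calls are no separate evidence. The promoter of Ube2e1, a ubiquitin-conjugating enzyme gene, was the only peak called in 4 of 4 libraries after PPx and 0 of 4 before. It read 4.36 after and 3.63 before PPx (p = 0.039 and FDR 0.999 in the authors' deposited table). The reverse was true of 4 peaks, at the promoters of Rfxap and Tcta and in introns of Galnt2l and Tusc3. The Tcta promoter read 3.52 after and 4.00 before PPx, and the Galnt2l peak 3.54 after and 3.99 before. The Tusc3 peak was weak at both times, at 0.43 after and 1.05 before PPx.

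Among peaks higher after PPx, the smallest p-values outside predicted genes belonged to 8 peaks, 4 at promoters and 4 elsewhere. The distal peak nearest to Lrp12, a gene of the LDL receptor family, at chr15:39999870-40000470 read 3.76 after and 2.04 before PPx (p = 0.00128 and FDR 0.999 in the authors' deposited table). A distal peak annotated to Ndufa4, which encodes a subunit of the respiratory chain, read 4.16 after and 2.83 before PPx (p = 0.00144 and FDR 0.999 in the authors' deposited table). It was called in 3 libraries after PPx and in 0 before. The Ndufa4 promoter itself read 5.29 after and 5.30 before PPx. A distal peak annotated to the proteasome subunit gene Sem1 read 3.47 after and 1.88 before PPx (p = 0.00433 in the authors' deposited table).

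At promoters, Inafm1 read 4.35 after and 3.20 before PPx (p = 0.00305 in the authors' deposited table). The promoter of Gpr85, an orphan G protein-coupled receptor gene, read 4.28 after and 3.03 before PPx (p = 0.00453 in the authors' deposited table). Hnrnph3, which encodes an RNA-binding protein of the splicing machinery, was the strongest of these promoters and was called in all 8 libraries. Its peak at chr10:63023770-63024370 covers the whole window printed above and read 5.09 after and 4.21 before PPx (p = 0.00484 and FDR 0.999 in the authors' deposited table). Abca15, an ABC transporter gene, had a peak in intron 19 of 30 that read 5.07 after and 4.18 before PPx (p = 0.005 in the authors' deposited table), although it was called in only 2 libraries after PPx and 0 before.

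Genes with more than 1 higher peak of p under 0.05, predicted genes included, were Kat2b, Dst and Cdk6. At Kat2b, which encodes the histone acetyltransferase PCAF, a peak between 1 and 2 kb from the start site read 4.12 after and 2.96 before PPx (p = 0.00892 in the authors' deposited table). The Kat2b peak at the start site read 3.62 after and 2.66 before PPx (p = 0.0402 in the authors' deposited table). That second peak differed by scaling, since the levels from the genotype comparisons gave a change of -0.09 there in place of 0.96. Dst, the gene of the cytoskeletal linker dystonin, read 4.14 after and 3.03 before PPx in exon 58 of 103, and 4.06 after and 3.20 before PPx at its promoter (p = 0.0101 and 0.0379 in the authors' deposited table). Cdk6, a kinase gene of the G1 phase of the cell cycle, read 4.15 after and 3.25 before PPx at its promoter and 4.10 after and 3.34 before PPx in intron 5 of 7 (p = 0.0255 and 0.0458 in the authors' deposited table). Its promoter peak was called in 3 libraries after PPx and none before. Another Cdk6 peak, in intron 4 of 7, was nearly unchanged, at 3.95 after and 3.89 before PPx (p = 0.952 in the authors' deposited table). That peak was called in 4 libraries at each time.

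Among peaks of at least the median concentration, the largest higher values had one exceptional member. The Pgk1 promoter on chromosome X, at the gene of a glycolytic kinase, read 8.81 after and 4.84 before PPx, a change of 3.97. Its p and FDR were both 1 in the authors' deposited table although it was called in all 8 libraries, and no test of that difference can be given here. In βKO islets the same peak read 6.67 after and 4.84 before PPx. The others changed by 0.89 to 0.96. Rfesd, which encodes a protein with a Rieske iron-sulphur domain, read 4.63 after and 3.70 before PPx at its promoter (p = 0.0107 in the authors' deposited table), and was called in 4 libraries after PPx and 2 before. The promoter of Gcfc2 read 4.94 after and 4.02 before PPx (p = 0.0106 in the authors' deposited table). Distal peaks annotated to Speer4cos, the F-box gene Fbxo15 and the ribosomal pseudogene Rpl21-ps14 read 4.41, 4.55 and 4.32 after PPx, against 3.45, 3.61 and 3.42 before. Intron 3 of 25 of Dpp10, which encodes an auxiliary protein of potassium channels, held a peak that read 4.49 after and 3.55 before PPx (p = 0.0152 in the authors' deposited table).

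The 8 lower peaks were at 7 named genes and the predicted gene Gm13284. The promoter peak of Pttg1, the gene of the mitotic regulator securin, lies at chr11:43425964-43426564. It read 2.25 after and 3.75 before PPx (p = 0.00152 and FDR 0.999 in the authors' deposited table) and was called in 0 of 4 libraries after PPx and 3 of 4 before. A distal peak annotated to the same gene went the other way, at 3.69 after and 3.28 before PPx with p = 0.361 in the authors' deposited table. Rfxap, which encodes a subunit of the RFX complex that activates MHC class II genes, read 3.35 after and 4.38 before PPx at its promoter (p = 0.00388 in the authors' deposited table). It was called in no library after PPx and in all 4 before.

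On chromosome 19, 2 promoters read lower. Jak2, the cytokine receptor kinase gene, at chr19:29251382-29251982 read 1.95 after and 3.31 before PPx (p = 0.0132 in the authors' deposited table). Cdc37l1, which encodes a co-chaperone of HSP90, at chr19:28990088-28990688 read 2.33 after and 3.44 before PPx (p = 0.0399 in the authors' deposited table). Iffo2, an intermediate filament family gene, read 3.58 after and 4.31 before PPx at its promoter (p = 0.0429 in the authors' deposited table). The remaining peaks lay in intron 1 of the sulphotransferase gene Chst9, at 2.61 after and 3.59 before PPx, and in intron 1 of the calcium pump gene Atp2b2, at 3.07 after and 3.94 before (p = 0.0401 and 0.0432 in the authors' deposited table). Relative to the median of the table these changes lay a further 0.16 lower, and with levels from the genotype comparisons the 5 promoters kept negative changes, between -1.73 and -0.95.

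Other strong peaks with the largest negative values did not reach a p under 0.05. The promoter of Dlc1, which encodes a GTPase-activating protein, read 3.62 after and 4.29 before PPx, and that of Smc3, a cohesin subunit gene, 3.74 after and 4.35 before (p = 0.074 and 0.0758 in the authors' deposited table). Slc17a6, a vesicular glutamate transporter gene, had a peak in intron 8 of 11 that read 4.00 after and 4.55 before PPx. The promoter of Relt, a gene of the TNF receptor family, read 3.72 after and 4.27 before PPx. A distal peak at the pseudogene Pisd-ps1 read 5.13 after and 6.15 before PPx, with p = 0.381 in the authors' deposited table.

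**Figure D2:**
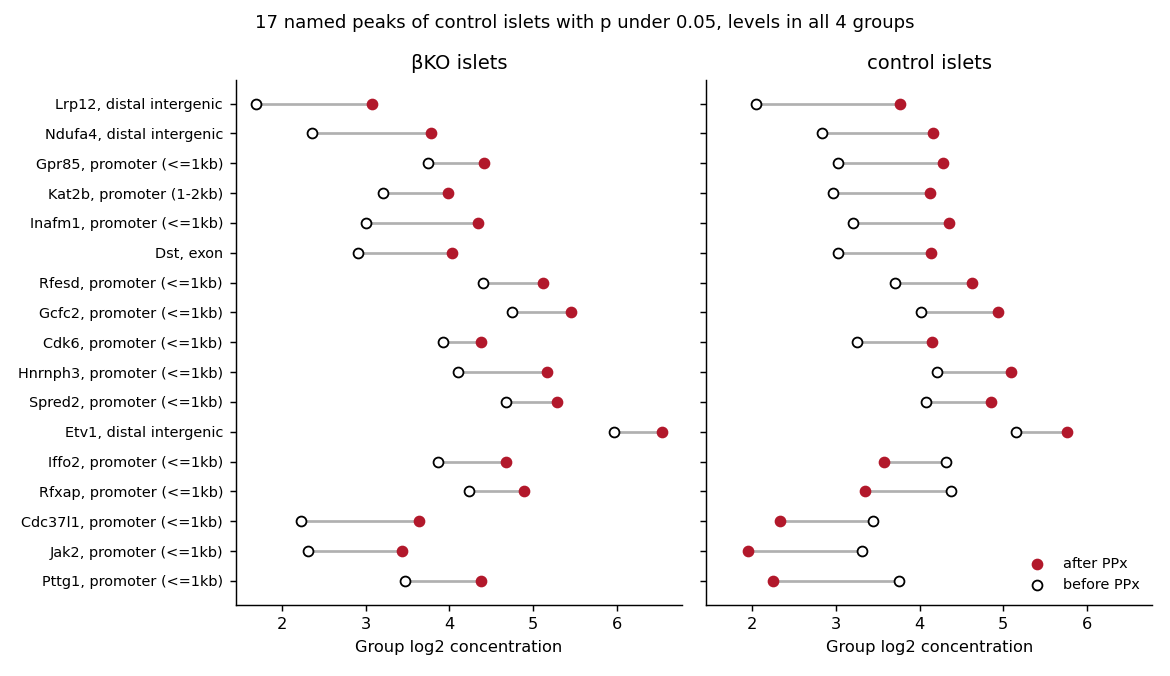
Group log2 concentration of 17 named peaks with an unadjusted p under 0.05 in control islets, after PPx (red) and before PPx (open), in βKO islets (left) and control islets (right), 1 peak per line with the smallest p per gene. The lowest 5 lines, Iffo2 to Pttg1, read lower after PPx in control islets and higher after PPx in βKO islets.

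Both promoters and distal elements shared the small general difference. Of the 8070 peaks, 5379 were at promoters (within 3 kb of a start site in the authors' annotation), 1625 were distal intergenic and 891 lay in introns. The median change was 0.15 at promoters, 0.19 at distal intergenic peaks and 0.22 in introns. All of these turn negative with levels from the genotype comparisons, at -0.08, -0.06 and -0.05, and there too promoters had the lowest value. Peaks with p under 0.05 in the authors' deposited table comprised 100 higher and 6 lower at promoters, 67 higher and 0 lower at distal intergenic sites, and 23 higher and 2 lower in introns. The higher ones were 1.86% of promoter peaks, 4.12% of distal intergenic peaks and 2.58% of intron peaks, against 2.43% of all peaks, and the difference between classes was not tested. Distal peaks were weaker, with a median mean concentration of 3.65 against 4.09 at promoters within 1 kb.

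Smaller classes held few peaks. Within promoters, the median was 0.15 over 5177 peaks up to 1 kb from the start, 0.24 over 115 peaks at 1 to 2 kb and 0.12 over 87 peaks at 2 to 3 kb, of which 7 had a p under 0.05 and were higher. Exons had a median of 0.175 over 104 peaks, 3′ UTRs 0.14 over 37 and 5′ UTRs 0.235 over 6. Downstream peaks had medians of 0.26 over 9 peaks within 1 kb of the gene end, 0.49 over 7 at 1 to 2 kb and 0.24 over 12 at 2 to 3 kb.

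**Figure D3:**
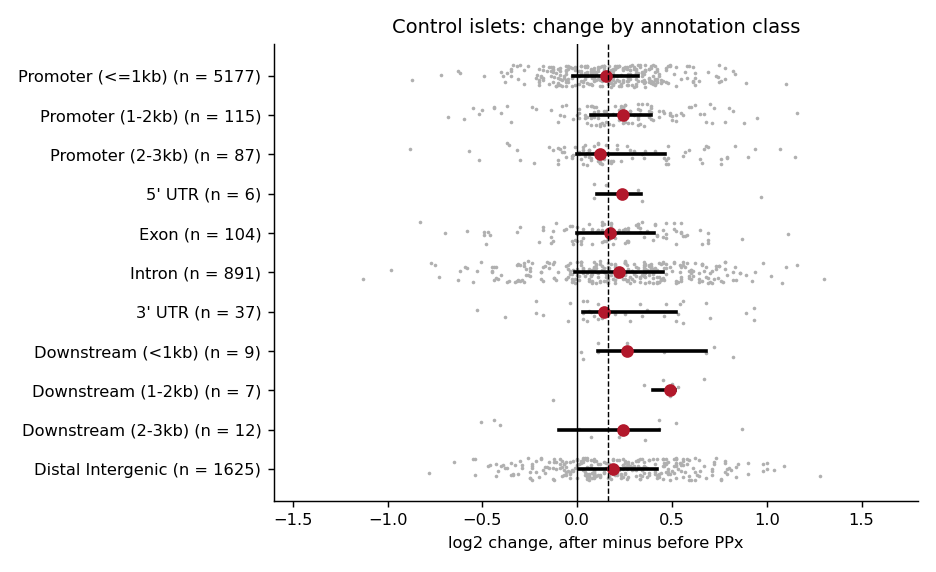
log2 change (after minus before PPx, horizontal axis) of control islets by annotation class, with the number of peaks in each. Red points are medians, black bars quartiles, grey points single peaks (at most 300 drawn at random per class), and the solid and dashed lines mark 0 and the median of all peaks. The medians of the 3 largest classes lie between 0.15 and 0.22.

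Peaks in gene-dense regions had smaller changes than those in gene-poor regions in control islets, a split chosen after the data were seen. Peaks with 0 to 5 protein-coding genes within 1 Mb had a median change of 0.20, and those with 46 or more had 0.12. Among promoter peaks alone these values were 0.20 and 0.11. Without chromosome 11 they were 0.20 and 0.13 over all peaks. In βKO islets the order was the opposite, at 0.695 in the gene-poor bin and 0.89 in the gene-dense bin, and the difference between the genotypes in this order was not tested. With levels from the genotype comparisons the gene-poor bin lay 0.02 above and the gene-dense bin 0.04 below the median of matched peaks, so the ends kept their order while the sign of the change did not hold.

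Chromosome 11 stood lowest among the autosomes and chromosome X. Its 241 peaks had a median change of 0.02, against 0.10 for chromosome 18, the next in order, and 0.22 for chromosomes 1 and X at the upper end. Chromosome Y is left out of this order because 60 of its 76 peaks lay at the lowest level of both groups, so its median of 0.09 is no measured change. Values were lower further along the chromosome, with a median of 0.13 over 123 peaks in the first 40 Mb, -0.03 over 66 peaks from 40 to 80 Mb and -0.14 over 52 peaks beyond 80 Mb. In βKO islets these stretches had medians of 0.82, 0.82 and 0.74. Only chromosome 11 was cut into stretches, after its median was seen, so this order was not compared with that on other chromosomes. Chromosome 11 also had the fewest peaks for its genes, 14.98 per 100 protein-coding genes, against 18.0 on chromosome 19 and 61.7 on chromosome 3. With levels from the genotype comparisons it lay 0.11 below the median of matched peaks.

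**Figure D4:**
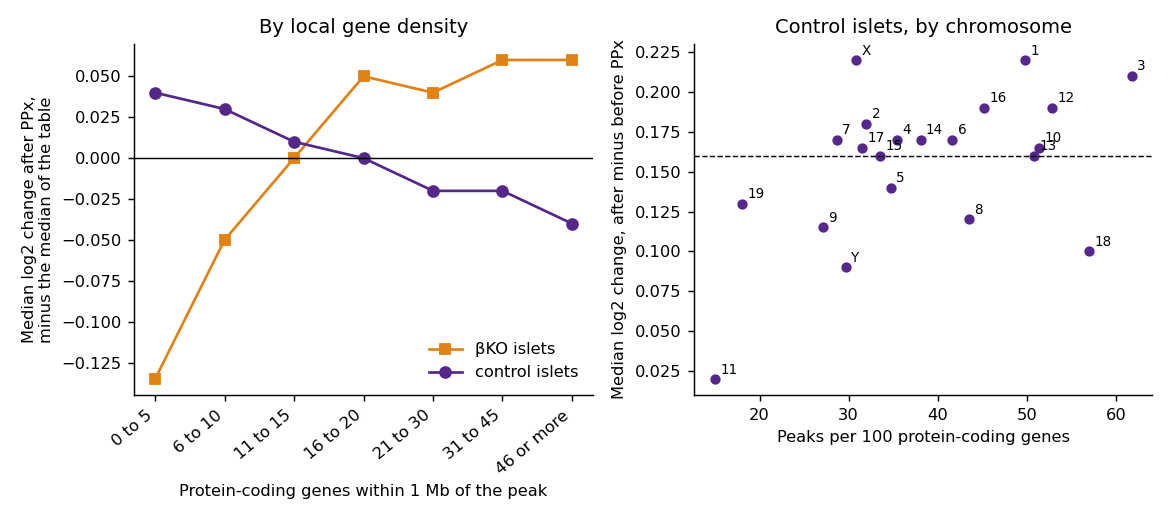
Left, median log2 change after PPx minus the median of the table, by the number of protein-coding genes within 1 Mb, in βKO islets (orange squares) and control islets (purple circles). Right, median log2 change of each chromosome in control islets against its peaks per 100 protein-coding genes, with the median of all peaks dashed and chromosome 11 lowest at 0.02. The median of chromosome Y, 0.09, is that of peaks at the lowest level of both groups and is no measured change.

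The median change differed somewhat with the letters of the promoters, and none of these differences was tested. RefSeq windows of 300 bases (250 before and 50 after the start) overlapped 3805 peaks by at least 150 bases, out of 32851 windows in all. In 5 equal groups by GC content the median change was 0.19 for windows of 35.7% to 55% and 0.12 for those of 69% to 87%. The letters GGGCGG (either strand, as for all motifs here) were in 71.7% of the windows under peaks and 35.7% of all windows, with a median change of 0.13 with them and 0.17 without. CCAAT was in 48.6% and 37.4%, with changes of 0.13 and 0.15. CCGGAAG was in 19.7% and 8.86%, with changes of 0.15 and 0.14, and TGACGTCA in 4.34% and 1.79%, with changes of 0.13 and 0.15. TGANTCA, an AP-1-like string, was rarer under peaks than among all windows, at 3.73% and 7.81%, with changes of 0.17 and 0.14. Of 11 motifs searched, 3 rare ones had the widest gaps. TTAATTA was in 51 windows under peaks, with a median change of 0.20 with it and 0.14 without. An RFX-like string was in 30, with 0.24 and 0.14, and a CTCF-like string in 32, with 0.07 and 0.15. The remaining 3 motifs were the E-box CACGTG, with 0.14 and 0.15, the forkhead-like string TGTTTAC, with 0.13 and 0.15, and an NRF1-like string, with 0.14 and 0.15.

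The islet identity of the samples was visible in part. Of 8 β cell markers, Ins1, Nkx6-1 and Slc30a8 had a peak in this comparison. The α cell marker Gcg and Sst of 2 δ cell markers had one. No peak was listed for any of 5 acinar and 3 leukocyte markers, nor for Ppy, the pancreatic polypeptide gene. Cftr of 4 duct markers read 2.82 after and 3.20 before PPx, Cdh5 of 3 endothelial markers read 3.09 and 3.59 after and 2.71 and 3.57 before at its 2 peaks, and Col3a1 of 3 stromal markers read 3.12 after and 2.91 before PPx. Summed over markers on the linear scale, the β cell markers had 56.4 normalized reads after and 51.2 before PPx, the δ cell markers 20.3 after and 18.8 before, the endothelial markers 20.6 after and 18.4 before, and the stromal markers 8.69 after and 7.52 before. The duct sum of 7.06 after and 9.19 before PPx is the single Cftr peak. In the longer duct list below, by contrast, 8 of 9 peaks were higher after PPx, against 72.8% of all peaks. The part of these small differences in the other results was not tested. Ins2, Pdx1, Mafa and Arid1a had no peak listed in this comparison.

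The gene lists below are described by their counts and medians and were not tested as lists. Genes of β cell identity and function held near the median. Of 40 listed genes 16 had a peak, 22 in all, with a median change of 0.195 against 0.16 over all peaks. The single one with p under 0.05 was in intron 1 of 8 of Cpe, the prohormone-processing carboxypeptidase gene, which read 3.86 after and 2.93 before PPx (p = 0.0338 in the authors' deposited table). Other Cpe intron peaks read 5.41 after and 5.24 before, and 4.11 after and 4.32 before PPx. The Ins1 promoter at chr19:52263952-52264552 read 4.17 after and 3.90 before PPx (p = 0.556 in the authors' deposited table), and reads from the transgene's insulin promoter cannot be separated from it here. The promoter of Pax6, an islet transcription factor gene, read 5.77 after and 5.58 before, and that of Nkx6-1, a β cell transcription factor gene, 3.79 after and 4.01 before PPx. G6pc2, the islet glucose-6-phosphatase gene, read 4.14 after and 3.56 before PPx at its promoter, with p = 0.143 in the authors' deposited table.

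Genes of the other islet cell types behaved similarly. Of 18 genes on the α, δ, PP and ε cell list 7 had a peak, 9 in all, with a median change of 0.19. The glucagon gene Gcg read 3.85 after and 3.42 before PPx, and a distal peak of the somatostatin gene Sst 4.34 after and 4.23 before. A distal peak of the transcription factor gene Etv1 was the single one with p under 0.05, at 5.76 after and 5.15 before PPx (p = 0.041 in the authors' deposited table). The β cell disallowed genes, which are normally kept silent there, had peaks at 2 of 20 genes, Itih5 and Lmo4, with a median of 0.30 over 4 peaks and none with p under 0.05.

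Cell cycle genes showed values in both directions. Of 50 listed genes 21 had a peak, 28 in all, with a median change of 0.235, and 17 peaks lay above the median of the table. Those with p under 0.05 were 3 higher peaks, the pair at Cdk6 and 1 at Myc, and 1 lower peak, at the Pttg1 promoter. Over all peaks, 2.43% were higher and 0.0991% lower at that threshold, and the difference from these shares was not tested. Myc, the growth-promoting transcription factor gene, read 4.04 after and 3.19 before PPx at 1 distal peak (p = 0.0298 in the authors' deposited table). Its other distal peak read 3.74 after and 2.89 before, and its promoter 4.81 after and 4.26 before PPx (p = 0.0859 and 0.0854 in the authors' deposited table). All 3 Myc peaks were thus higher after PPx, as were 72.8% of all peaks. The replication licensing genes Mcm3, Mcm4, Mcm5 and Mcm6 read 6.04, 5.72, 5.03 and 4.01 after PPx, against 5.68, 5.53, 5.00 and 3.56 before. The mitotic genes Cdk1 and Ccnb1 read 3.60 and 3.17 after PPx at their promoters, against 3.87 and 3.45 before, and Pcna read 4.22 after and 4.25 before. A peak 1 to 2 kb downstream of Cdk1 went the other way from its promoter, at 3.63 after and 3.28 before PPx. E2f3 had the strongest peak of the list, at 6.19 after and 6.10 before PPx.

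Genes of EGF, neuregulin and ERBB signalling had a higher median over all their peaks than the other signalling lists, though not over strong peaks alone. Of 38 listed genes 18 had a peak, 26 in all, with a median change of 0.35. After PPx 25 of 26 peaks were higher, against 72.8% of all peaks, and 18 lay above the median of the table. Among peaks at or above the median concentration the EGF list had 0.31 over 13 peaks, against 0.415 over 8 peaks for the TGF-β list. With levels from the genotype comparisons the median was 0.12 over 23 peaks. Of these, 16 were higher, against 38.1% of all matched peaks, and 18 lay above the median of matched peaks. A single peak had a p under 0.05, 1 of the 2 promoter peaks of Spred2, which encodes an inhibitor of Ras signalling. It read 4.85 after and 4.08 before PPx (p = 0.0133 in the authors' deposited table), and the other read 3.39 after and 3.83 before. The Egfr promoter, at the EGF receptor gene, read 4.01 after and 3.44 before PPx, and a peak in an intron of Egfr 4.62 after and 4.25 before. Among downstream kinases, the promoters of Map2k2 and Braf read 3.58 and 3.73 after PPx, against 3.15 and 3.31 before. The ligand genes Btc and Areg read 4.32 and 3.90 after PPx at their promoters, against 4.25 and 3.81 before. Adam17, which sheds such ligands, read 4.96 after and 4.47 before PPx.

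Other signalling lists had lower medians over all their peaks, with no peak of p under 0.05. The insulin, IGF and PI3K list had peaks at 16 of 28 genes, 19 in all, with a median of 0.10. Within it, the insulin receptor promoter (Insr) read 4.84 after and 4.25 before PPx (p = 0.0863 in the authors' deposited table), and Gsk3b had the strongest peak, at 6.13 after and 6.05 before. The TGF-β, activin and BMP list had peaks at 12 of 31 genes, 15 in all, with a median of 0.12, or 0.195 with the strongest peak of each gene. The promoter and an intron peak of its activin subunit gene Inhba read 5.50 and 4.25 after PPx, against 5.00 and 3.52 before (p = 0.0926 and 0.0628 in the authors' deposited table). The Wnt and Notch lists, with peaks at 9 of 29 and 9 of 26 genes, both had a median of 0.165. The SWI/SNF list, whose complex the floxed gene belongs to, had peaks at 7 of 26 genes and a median of 0.03, with the ATPase gene Smarca4 at 3.60 after and 3.10 before PPx.

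The stress and metabolic lists covered the same range. The unfolded protein response list had peaks at 12 of 26 genes with a median of 0.245, led in strength by the PERK kinase gene Eif2ak3 at 6.70 after and 6.53 before PPx. The immediate early and cAMP list had peaks at 16 of 27 genes with a median of 0.26, which lay below that of matched peaks with levels from the genotype comparisons. Within it Jun read 6.84 after and 6.54 before PPx, and the nuclear receptor gene Nr4a3 4.39 after and 4.91 before (p = 0.0746 in the authors' deposited table). Oxidative phosphorylation had peaks at 15 of 42 genes with a median of 0.13, and the distal Ndufa4 peak was its single one with p under 0.05. The cytosolic ribosomal protein list had peaks at 22 of 57 genes with a median of 0.15, the clock list at 12 of 22 genes with 0.10, and the glycolysis and hypoxia list at 11 of 27 genes with 0.03, Pgk1 included.

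Lists for other cell types had few peaks. The acinar list of 24 genes and the macrophage and leukocyte list of 19 had none. The duct list had peaks at 4 of 19 genes, 9 in all with a median of 0.37, of which 6 were at Pkhd1, the fibrocystin gene. Its promoter read 4.25 after and 3.51 before PPx (p = 0.0596 in the authors' deposited table). With the strongest peak of each gene only, the duct median was 0.07. The endothelial and stromal lists had peaks at 4 and 3 of 18 genes each, with medians of 0.21 and 0.10. Over all 21 lists, 215 of 596 genes had a peak, and 7 of 273 peaks were higher with p under 0.05, or 2.56% against 2.43% of all peaks, and 1 was lower.

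**Figure D5:**
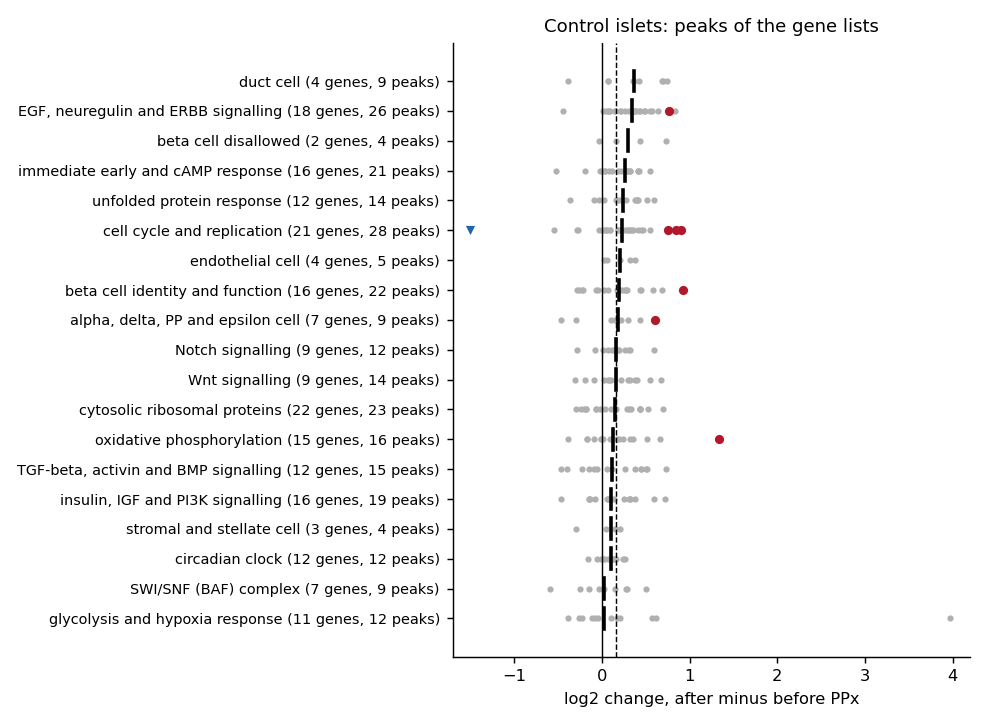
log2 change (after minus before PPx) of every peak of the gene lists in control islets, 1 list per line ordered by its median (black bar). Red points and the blue triangle are peaks with an unadjusted p under 0.05, and the solid and dashed lines mark 0 and 0.16. The duct and EGF lists have the highest medians, and the point at 3.97 is Pgk1.

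In βKO islets, whose libraries are not shared with the control comparison, the PPx difference was larger. The measured changes of the 2 genotypes were not correlated from peak to peak. Of the control peaks, 7535 (93.4%) overlapped a peak of the βKO comparison, which made up 59.0% of the βKO peaks. At these, the median change was 0.83 in βKO and 0.16 in control islets, and the βKO change was above the control change at 92.7% of peaks. The levels of the 2 comparisons are not strictly on 1 scale. The βKO change also depends on the scaling at single peaks, and its median with levels from the genotype comparisons was not computed. The Pax6 promoter read 6.43 after and 5.84 before PPx in βKO islets, against 6.41 and 6.07 with those levels. The Gpr85 promoter read 4.41 after and 3.75 before PPx in βKO islets, against 4.45 and 3.70. Across the 7535 peaks the changes were not correlated (Pearson's and Spearman's coefficients both 0.01, a description in which the peaks of a group share their libraries). The control change had an SD over peaks of 0.50 in the weakest bin and 0.23 in the strongest. The standard error implied at the median peak was 0.38, of similar size. The coefficients therefore cannot tell whether the underlying changes agree between the genotypes. Among 10 equal groups by control change, the lowest had a median of 0.83 in βKO and -0.32 in control islets, and the highest 0.84 in βKO and 0.67 in control islets.

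Control peaks with small p-values had βKO values near those of all matched peaks. Of 170 matched control peaks that were higher with p under 0.05, 42.4% were also higher with p under 0.05 in βKO islets, against 47.6% of all matched peaks (39.4% of all βKO peaks), and 8.24% had an FDR under 0.05 there, against 10.4% of all matched peaks (7.44% of all βKO peaks). The 780 matched peaks with an FDR under 0.05 in βKO islets had a median control change of 0.165, against 0.16 for the others. An approximate normal test of the difference, from standard errors implied by the authors' p-values, called 0 of 7533 peaks after Benjamini-Hochberg adjustment (smallest adjusted p = 0.161). At an unadjusted p under 0.05 it listed 1013 peaks with the larger change in βKO islets and 5 with the smaller.

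The control peaks with lower values after PPx had higher values after PPx in βKO islets. At 6 matched peaks of this kind the βKO change lay between 0.65 and 1.41 with a median of 0.915, near the 0.83 of all matched peaks, of which 97.7% were higher after PPx in βKO islets. The Pttg1 promoter read 4.38 after and 3.47 before PPx in βKO islets, against 2.25 after and 3.75 before in control islets, a difference of 2.41 between the changes (approximate test from the authors' p-values, adjusted p = 0.161). The Rfxap promoter read 4.89 after and 4.24 before PPx in βKO islets, against 3.35 after and 4.38 before in control islets, a difference of 1.68 (approximate test from the authors' p-values, adjusted p = 0.238). Jak2 read 3.43 after and 2.31 before PPx in βKO islets, and Cdc37l1 3.64 after and 2.23 before. At the Hnrnph3 promoter, by contrast, βKO islets read 5.17 after and 4.10 before PPx, close to the control values of 5.09 after and 4.21 before.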

How the data were processed

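The submitters' processing notes name mm10 (GRCm38) as the build and, among the tools, cutadapt, the aligner BWA, the peak caller MACS, DiffBind for the comparisons, and ChIPseeker. Tool versions and settings, and whether reads were moved to the Tn5 cut site, are not stated there. Per the file headers, the deposited columns hold log2 concentrations (over all libraries and by group), a log2 fold between groups, a p-value, an FDR and the number of libraries that called the peak. Group values are the authors' means, so no SD could be computed and no library could be left out. The deposited fold runs before minus after, so changes were computed as after minus before from the group values.

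Of 9407 deposited entries, 1337 repeated a position and were dropped. The gene of a distal peak is the one the authors' annotation gives. Standard errors were derived from change and p, with medians of 20 bins of concentration where p was 0.5 or more or the change under 0.1, and 2 peaks whose p did not match their change were left out of approximate tests. Peaks were matched between tables by at least 1 bp, 1 to 1. The test of the genotype difference was tried on simulated data, with planted differences well above the median difference of 0.65 at matched peaks. Its power at smaller differences was not tested. Named peaks are those past the FDR (none), the 8 smallest p-values among higher peaks, all lower ones with p under 0.05, the 8 largest changes each way among peaks of at least the median concentration, genes with several peaks of p under 0.05, the 6 strongest peaks, and for each list the smallest p and the strongest peak, with hormone and β cell genes. Others were chosen after their values were seen. The members, gene lists and rules were chosen with earlier results of these data known. Python 3.11.15 with pandas 2.3.3, numpy 2.4.6 and scipy 1.17.1 was used. A few named genes are not reported here.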

Additional observations from a re-analysis of the deposited data

How the results depend on the processing

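No paired analysis was possible because the sample numbers in the labels are unique to each library, and leaving out each replicate was not possible because the tables hold group values only. The count of 0 peaks past the FDR could not change in subsets of peaks, since the smallest FDR was 0.619. It was also 0 with repeated entries kept and with Benjamini-Hochberg adjustment over all listed peaks. The approximate normal test relative to the median of the table, adjusted in the same way, gave 0 as well. The 0 calls of the genotype difference held under every alternative run. Of 196 higher and 8 lower peaks with p under 0.05, 87 and 2 remained at or above the median concentration, 82 and 1 among peaks called in at least 2 libraries of each group, and 19 and 3 at a p under 0.01. Promoters held 100 of the higher ones. Relative to the median of the table the approximate normal test gave 48 higher and 45 lower. Leaving out the 107 peaks at the lowest level of both groups, chosen after seeing the data, gave a median of 0.17 and a share of 72.4%. The share of higher peaks was 77.7% at or above the median concentration and 76.7% with calls in at least 2 libraries of each group.

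With levels from the genotype comparisons, an alternative chosen after seeing the data, the median was -0.07, the share 38.1%, and the class medians -0.06 (distal intergenic), -0.02 (exon, UTR and downstream), -0.05 (intron) and -0.08 (promoter). List medians on that scaling were -0.05 (β cell), -0.03 (α, δ, PP and ε cell), -0.02 (cell cycle), 0.12 (EGF), -0.12 (insulin and Wnt), 0.025 (unfolded protein response), -0.14 (immediate early), -0.17 (TGF-β), -0.06 (Notch), -0.185 (SWI/SNF), -0.09 (disallowed), -0.095 (oxidative phosphorylation), -0.16 (ribosomal), -0.15 (clock), -0.29 (glycolysis), 0.18 (duct), -0.04 (endothelial) and -0.18 (stromal). Among promoter peaks only, list medians were 0.24 (EGF), 0.44 (disallowed), -0.06 (glycolysis), 0.32 (endothelial) and 0.21 (stromal). At or above the median concentration they were 0.415 (TGF-β), 0.15 (SWI/SNF), -0.04 (glycolysis) and 0.555 (duct), and with the strongest peak of each gene -0.04 (glycolysis) and 0.07 (duct). The cause of these shifts was not tested. The median peak held about 15.2 normalized reads per library, which limits single peaks.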

Other observations

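The 6 strongest peaks of control islets lay far above the rest, and 3 of them were annotated to the predicted genes Gm10222, Gm10800 and Gm10801. In the authors' deposited table Gm10222 read 15.42 after and 15.72 before PPx, Gm10800 15.47 after and 14.88 before, and Gm10801 13.24 after and 12.78 before. Peaks annotated to Chl1, Pak3 and Gm5614 read 12.74, 11.90 and 10.96 after PPx, against 12.57, 11.70 and 10.37 before. None of the 6 had an unadjusted p under 0.05 in the authors' deposited table, and in βKO islets Gm10222 read 15.97 after and 16.07 before PPx.

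Peaks annotated to predicted genes were 19.1% of the control comparison, 1538 of 8070. Their median change was 0.16, as at the other peaks, and 47 of them, or 3.06%, had an unadjusted p under 0.05 in the authors' deposited table, against 2.53% of all peaks.

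Besides Pgk1, a distal peak annotated to Gm25696 had a p of 1 in the authors' deposited table beside a large change, at 3.61 after and 4.49 before PPx, and was chosen after its values were seen.

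The smallest p of the difference between the PPx changes of βKO and control islets, by the approximate normal test, was at the promoter of the proteasome gene Psmd1. Psmd1 read 4.68 after and 2.76 before PPx in βKO islets, against 3.24 after and 3.90 before in control islets. Its adjusted p in that test was 0.161.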
